A study of Mus musculus with 24 samples.

Results

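The transcripts of cannabinoid receptor 2 and of 7 regulators of G-protein signalling (RGS) were followed in SIM-A9 cells, an established mouse microglial line, after 2 h with probes used in neuroscience. The members were 8 listed genes, Cnr2, Rgs1, Rgs2, Rgs10, Rgs14, Rgs16, Rgs18 and Rgs19, of 54838 gene identifiers in the count table and 13116 genes that passed a filter on low counts. All 8 members passed it, but Rgs16 did so only through the groups in which it was high, since its counts passed the minimum of 0.416 CPM (counts scaled to library size) in 9 of 24 libraries, those of LPS, (GT)6 SWCNT and COOH SWCNT. The list was drawn up with results of these libraries in view, in particular the low Cnr2 in LPS and the low Rgs1 in Di-2-ANEPEQ. Values of the members in those 2 comparisons are therefore given as a description, with no p-value, and their counts of calls support nothing.

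The study had 24 poly-A RNA libraries in 8 groups of 3. Cells were kept in serum-free medium for 2 h, 30 uL of a concentrated sample was added to 270 uL of medium, and RNA was taken 2 h later. The groups were Control, LPS (bacterial lipopolysaccharide), (GT)6 SWCNT (single-walled carbon nanotubes; (GT)6 is a name used for a short DNA repeat wrapped around them), COOH SWCNT (carboxylated nanotubes), Fura-2 (a fluorescent calcium indicator), DiBASC2 and Di-2-ANEPEQ (both voltage dyes), and AAV (adeno-associated virus). All groups were of the same line and had the same serum-free interval and sampling time; the labels gave no dose, and no serotype or cargo for the virus. Nothing in the labels says that the 3 libraries of a group came from separate cultures, so p-values measure only the spread between these samples, which may be technical. A cell line carries only what its culture keeps of microglial identity. Of 15 microglia and macrophage markers 14 passed the filter, and the list had a summed level of 3017.5 to 3294.1 CPM in every library. However, Sall1 had at most 3 counts, and Tmem119 (2.75 to 5.32 CPM), P2ry12 (1.54 to 3.26 CPM) and Aif1 (2.68 to 5.27 CPM) were low. Summed levels of marker lists of astrocytes, neurons, B cells and T cells were at most 0.489, 0.1, 0.352 and 0.43 CPM, and that of oligodendrocytes was 3.41 to 5.8 CPM with Mog and Olig2 at no more than 3 counts. In these bulk samples, fewer cells of a kind with a transcript and less transcript per cell cannot be told apart.

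Cannabinoid receptor 2 is the cannabinoid receptor of immune cells. It couples to inhibitory G proteins, whose alpha subunit, when loaded with GTP, lowers adenylyl cyclase activity while the released beta-gamma subunits act on other effectors. RGS proteins bind the active alpha subunit and speed its hydrolysis of GTP, which ends the signal. Several Rgs genes are known to be controlled at the level of transcription in immune cells, and RGS10 is known as an abundant RGS protein of microglia.

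The Rgs members lie in a few places. On GENCODE M21 (build GRCm38), Rgs2 (chromosome 1, 143999338 to 144004161, minus strand), Rgs1 (144242296 to 144249242, minus strand) and Rgs18 (144752683 to 144775435, minus strand) share a cluster on chromosome 1 with Rgs13 and Rgs21. Gaps in this cluster were 134 kb from Rgs2 to Rgs13, 65 kb on to Rgs1, 267 kb to Rgs21 and 185 kb to Rgs18. Rgs13 never exceeded 1 count and Rgs21 had 0 counts in all 24 libraries. Among the Rgs genes of the cluster, the counts thus fell almost only on Rgs2, Rgs1 and Rgs18. Rgs16 lies on the same chromosome at 153740349 to 153745468 (plus strand), 40 kb after Rgs8 and outside this cluster. Cnr2 is on chromosome 4 (135895394 to 135920207, plus strand), Rgs10 on chromosome 7 (128373621 to 128418758, minus strand), Rgs14 on chromosome 13 (55369732 to 55384687, plus strand) and Rgs19 on chromosome 2 (181688419 to 181693977, minus strand). Counts in each are those of the annotated gene as a whole. Exons of Rgs16 share 236 bases with the antisense gene Gm28513, and strand use in counting is not given in the sources used here; Gm28513 had at most 5 counts in any library and at most 1 in LPS.

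Promoter windows of 300 bases, from 250 before to 50 after an annotated start, were found in RefSeq (GRCm38.p6) for 5 of the 8 members: Cnr2, Rgs2, Rgs10, Rgs16 and Rgs19. Those of the 3 genes with the widest range of level among them are shown 5′ to 3′ in the direction of the gene, in lower case with matches to the searched motifs in capitals, because the levels below turn on these genes. Matches were sought on both strands, so a GC box reads GGGCGG or its complement and a CCAAT box reads CCAAT or its complement.
Cnr2 chr4:135894939-135895238 plus strand: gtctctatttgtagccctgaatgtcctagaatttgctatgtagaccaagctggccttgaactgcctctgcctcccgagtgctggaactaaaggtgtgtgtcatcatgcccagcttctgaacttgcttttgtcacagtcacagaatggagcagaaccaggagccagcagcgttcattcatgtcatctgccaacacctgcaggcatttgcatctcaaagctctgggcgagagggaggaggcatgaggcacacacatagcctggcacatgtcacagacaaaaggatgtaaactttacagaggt
Rgs16 chr1:153740103-153740402 plus strand: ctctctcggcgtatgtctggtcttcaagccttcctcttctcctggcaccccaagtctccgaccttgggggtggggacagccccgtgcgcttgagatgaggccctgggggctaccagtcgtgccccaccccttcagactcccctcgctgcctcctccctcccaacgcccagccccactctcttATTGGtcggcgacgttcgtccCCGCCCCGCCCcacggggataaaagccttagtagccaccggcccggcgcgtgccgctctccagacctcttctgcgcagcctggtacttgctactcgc
Rgs2 chr1:144004100-144004399 minus strand: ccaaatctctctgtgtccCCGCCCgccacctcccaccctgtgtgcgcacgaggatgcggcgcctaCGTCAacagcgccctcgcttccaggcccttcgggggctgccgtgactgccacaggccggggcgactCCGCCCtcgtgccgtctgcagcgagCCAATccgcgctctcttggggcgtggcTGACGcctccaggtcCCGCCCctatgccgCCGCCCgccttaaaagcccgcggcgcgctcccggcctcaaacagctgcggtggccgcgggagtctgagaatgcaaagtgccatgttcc
The table held 2 windows for Cnr2. The one shown, at the upstream start, ended at 135895238, before the counted gene began (135895394 in GENCODE M21). It had 50% G and C bases and none of the 8 motifs searched, and the other (46.3%) held a CCAAT box 46 bases before its start. Those of Rgs16 and Rgs2 had 66.0% and 70.0%, and the median of all 32851 windows was 52.7%. Rgs2 held 4 GC boxes, at 232, 119, 52 and 38 bases before the start, a CCAAT box at 94 bases and the cyclic AMP response core TGACG at 185 and 67 bases. Rgs16 held 2 GC boxes at 47 and 42 bases, which share a base, and a CCAAT box at 68 bases. Of all windows, 35.7% held GGGCGG, 37.4% held CCAAT and 20.8% held TGACG. The other motifs searched, TATAAA (13.6% of windows), the full cyclic AMP element TGACGTCA (1.79%), the AP-1 site TGANTCA (7.81%) and the NF-kappaB consensus (4.51%), had no match in the windows of the 5 members, and GAGGAAGT, the PU.1 site (3.2%), matched only in those of Rgs19. A match is a description of letters in the window and not a bound site.

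Differences were tested with edgeR's quasi-likelihood test with Benjamini-Hochberg adjustment over all 13116 genes, and a gene was called at an adjusted p under 0.05. Every comparison with Control uses the same 3 control libraries, so they are not independent of each other. These libraries also entered the LPS and Di-2-ANEPEQ comparisons that helped choose the list. The p-values of Cnr2 and Rgs1 against Control in the other groups are therefore not free of that choice. Of the 8 members, 5 were called in LPS, where 28.3% of all genes were called, 5 in (GT)6 SWCNT (20.4% of all genes) and 5 in COOH SWCNT (20.0%). DiBASC2 had 3 (5.47% of all genes), Di-2-ANEPEQ 2 (3.08%) and AAV 1 (5.00%). In Fura-2 edgeR called 0 members (0.252% of all genes), and DESeq2 called 1 member. At an unadjusted edgeR p under 0.05 there were 2 members, beside 1411 of all 13116 genes. Between the nanotubes, (GT)6 SWCNT against COOH SWCNT, 3 members were called (21.4% of all genes). The counts in LPS, (GT)6 SWCNT and COOH SWCNT include Rgs16 and were 4 each without it. The members were picked with results known, so these counts are not independent evidence about the group, and nothing is read from those of LPS and Di-2-ANEPEQ. The count in COOH SWCNT fell to 3 without Control replicate 1, Control replicate 3 or COOH SWCNT replicate 1. The count between the nanotubes rose to 5 without COOH SWCNT replicate 3, and that in Fura-2 rose to 1 without Fura-2 replicate 1.

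**Figure D1:**
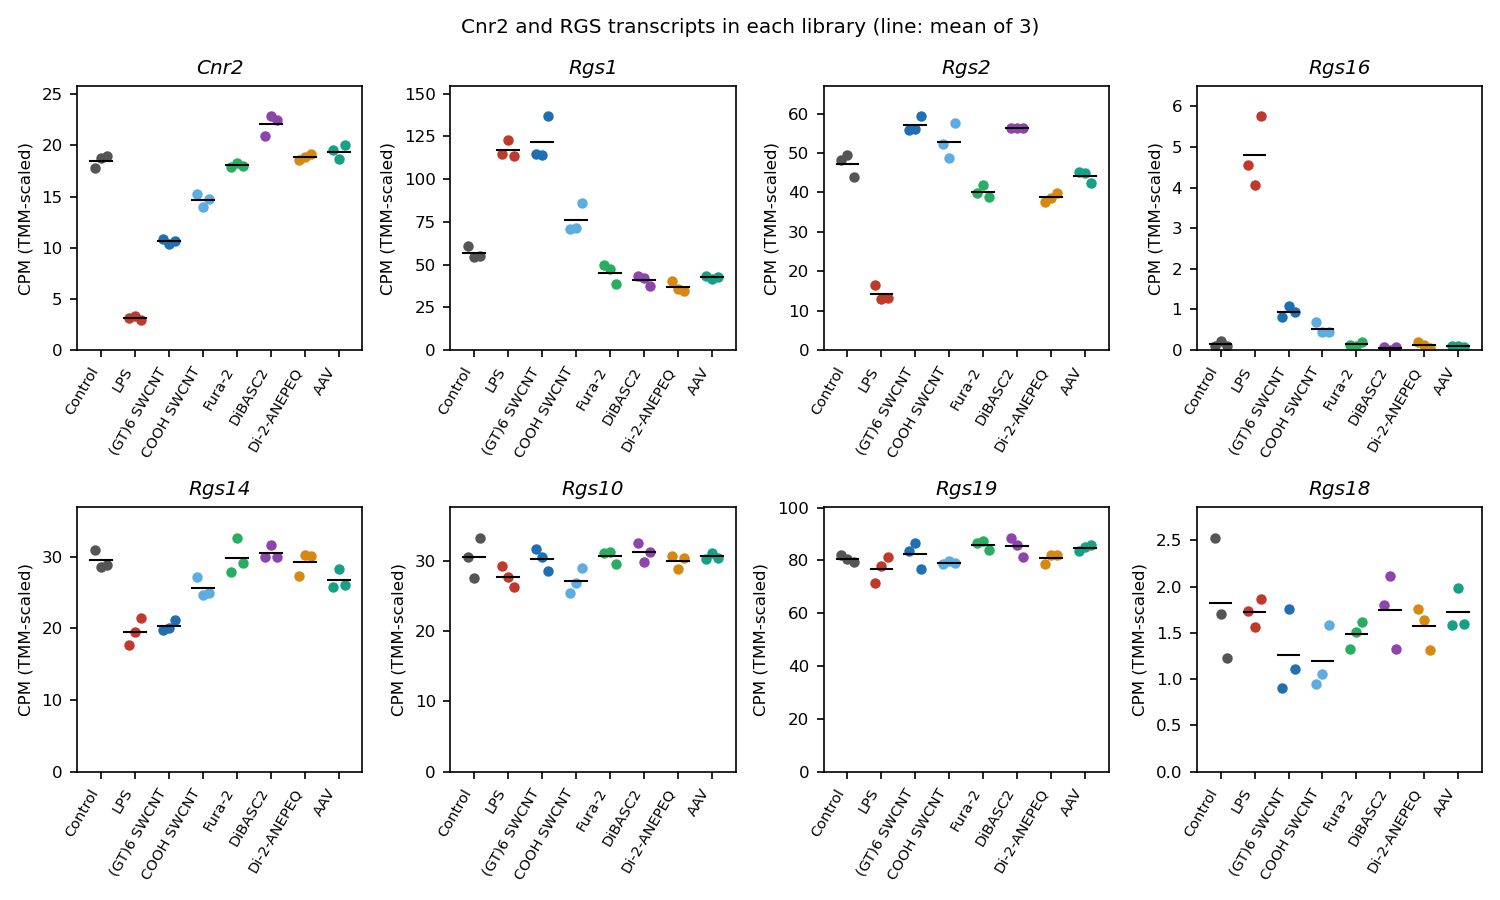
CPM of each member (y axis, own scale per panel) in every library, grouped by treatment on the x axis; points are libraries and lines are means of 3. Cnr2 steps down from 17.7 to 19.0 CPM in Control through COOH SWCNT and (GT)6 SWCNT to 2.9 to 3.37 CPM in LPS, while Rgs10 and Rgs19 stay within narrow bands.

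Cnr2 (ENSMUSG00000062585.11), the receptor, was lower than in Control with LPS and with both nanotubes. Its 3 control libraries had 17.7, 18.8 and 19.0 CPM (18.5 ± 0.659, SD, n = 3). In LPS the values were 2.9, 3.15 and 3.37 CPM, from 58 to 69 counts per library, a level 5.9-fold lower (95% interval 5.19 to 6.7). The log2 fold change was -2.56 ± 0.09 (SE). This difference helped choose the list, so the interval is a description and not a test. All LPS libraries lay below those of every other group.

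Cnr2 fell with both nanotubes, by different amounts. The (GT)6 SWCNT libraries had 10.3, 10.7 and 10.9 CPM, 1.74-fold below Control (log2 fold change -0.80 ± 0.07, SE; adjusted p = 2.41e-11). The COOH SWCNT libraries had 14.0, 14.8 and 15.3 CPM, 1.26-fold below Control (-0.33 ± 0.07; adjusted p = 0.000378). Neither set overlapped Control or the other: compared directly, a test that uses no control library, Cnr2 was 1.39-fold lower with (GT)6 than with COOH nanotubes (-0.47 ± 0.07; adjusted p = 8.51e-06). Each of these 3 calls held under all 13 alternative analyses.

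The remaining probes left Cnr2 near its control level or slightly above. DiBASC2 libraries had 20.9, 22.5 and 22.8 CPM, all above Control, and the difference of 1.19-fold was called (0.25 ± 0.06; adjusted p = 0.012). This call was lost with no low-count filter (adjusted p = 0.0661), without Control replicate 1 (0.0807) and without DiBASC2 replicate 2 (0.0682), in a range over the alternatives of 0.00561 to 0.0807. Fura-2 (17.9, 18 and 18.3 CPM), Di-2-ANEPEQ (18.5, 18.9 and 19.2 CPM) and AAV (18.6, 19.5 and 20.0 CPM) overlapped Control. The 95% interval of the log2 difference from Control was -0.17 to 0.10 in Fura-2 and -0.06 to 0.19 in AAV. In order of mean level Cnr2 thus ran from DiBASC2, whose libraries lay above all others, through AAV, Di-2-ANEPEQ, Control and Fura-2, which overlapped from one to the next, to COOH SWCNT, (GT)6 SWCNT and LPS, each apart from its neighbours.

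Rgs1 (ENSMUSG00000026358.13), which acts on inhibitory and Gq alpha subunits and is known to dampen chemokine receptor signalling in lymphocytes, was higher than in Control with LPS and nanotubes and lower with dyes and virus. Control libraries had 54.3, 55.2 and 61.1 CPM (56.9 ± 3.69, SD, n = 3). LPS libraries had 113.5, 114.7 and 122.9 CPM, 2.06-fold higher (log2 fold change 1.04 ± 0.08, SE). With (GT)6 SWCNT the libraries had 114.1, 114.7 and 136.7 CPM, 2.14-fold above Control (1.10 ± 0.08; adjusted p = 2.52e-14), and they overlapped those of LPS. This differs from Cnr2, for which the (GT)6 SWCNT and LPS libraries lay far apart. COOH SWCNT libraries had 71.1, 71.5 and 85.9 CPM, 1.34-fold above Control (0.42 ± 0.08; adjusted p = 8.5e-05). The (GT)6 level was 1.59-fold the COOH level (0.67 ± 0.07; adjusted p = 1.38e-08), with no overlap.

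Rgs1 was below Control in every library of the 3 dyes and of AAV. DiBASC2 libraries had 37.7, 42.2 and 43.3 CPM, 1.38-fold lower (-0.46 ± 0.08; adjusted p = 0.000239). AAV libraries had 41.7, 43 and 43.2 CPM, 1.33-fold lower (-0.41 ± 0.08; adjusted p = 0.00206). Di-2-ANEPEQ libraries, one of the values that chose this gene, had 34.5, 35.9 and 40.4 CPM, 1.53-fold lower (-0.62 ± 0.08). Fura-2 libraries had 38.5, 47.5 and 49.7 CPM, 1.26-fold lower, and missed the threshold (-0.33 ± 0.08; adjusted p = 0.0595). That difference was called with no low-count filter (adjusted p = 1.6e-06), in a fit of only the 2 groups (0.03) and without Fura-2 replicate 1 (0.0209), in a range of 1.6e-06 to 0.594 over the alternatives. All 4 of these differences are taken from the same control libraries, so their shared direction is not independent evidence. Those libraries also entered the Di-2-ANEPEQ comparison that helped choose this gene, so the p-values here are not free of that choice. The Fura-2, AAV, DiBASC2 and Di-2-ANEPEQ levels followed each other in this order with overlapping neighbours.

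Rgs16 (ENSMUSG00000026475.7), which also acts on inhibitory and Gq alpha subunits, was close to the counting limit without LPS or nanotubes. Control libraries held 2, 2 and 5 counts, 9 in sum (0.143 ± 0.0603 CPM, SD, n = 3). LPS libraries held 83, 84 and 123 counts (4.79 ± 0.871 CPM), 290 in sum, a depth-scaled ratio to Control of 32.3 with an exact 95% interval of 16.8 to 71.4 that covers counting error only. With (GT)6 SWCNT there were 16, 20 and 25 counts, a ratio of 6.33 (3.13 to 14.5). With COOH SWCNT there were 9, 11 and 18 counts, a ratio of 3.59 (1.71 to 8.45). The LPS, (GT)6 and COOH libraries were each apart from the next group down. Rgs16 entered the fit only through these 3 groups, so its fitted values are not given as tests. Rgs16 summed to 10 counts in Fura-2, 4 in DiBASC2, 10 in Di-2-ANEPEQ and 8 in AAV, with ratios to Control of 0.95 (0.347 to 2.64), 0.342 (0.077 to 1.23), 0.861 (0.315 to 2.4) and 0.646 (0.217 to 1.89). One DiBASC2 library had 0 counts. The DiBASC2 libraries (0 to 0.0856 CPM) lay below those of Control (0.107 to 0.213 CPM), but with 0 to 2 counts against 2 to 5. None of these 4 groups could be told from Control by its interval at this depth. The 4 groups were not compared with each other.

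Rgs2 (ENSMUSG00000026360.9), which acts chiefly on Gq alpha subunits and can also inhibit adenylyl cyclase directly, was low in LPS and raised in (GT)6 SWCNT. Control libraries had 43.8, 48.3 and 49.4 CPM (47.2 ± 2.95, SD, n = 3). LPS libraries had 12.8, 13.3 and 16.5 CPM, 3.34-fold lower (log2 fold change -1.74 ± 0.07, SE), below every library of the other groups. (GT)6 SWCNT libraries had 55.8, 56.1 and 59.3 CPM, 1.21-fold above Control with no overlap (0.27 ± 0.06; adjusted p = 0.000833). COOH SWCNT libraries had 48.7, 52.3 and 57.6 CPM, which overlapped Control, and the fitted difference of 1.12-fold was just called (0.17 ± 0.06; adjusted p = 0.0466). That call is fragile. It was lost with the replicate number as a block (adjusted p = 0.0532) and without Control replicate 1 (0.0522), Control replicate 3 (0.205), COOH SWCNT replicate 1 (0.0764) or COOH SWCNT replicate 3 (0.23), in a range of 0.0166 to 0.23 over the alternatives. Between the nanotubes Rgs2 was not called, with a 95% interval of -0.01 to 0.22 for the log2 difference (adjusted p = 0.213).

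Against Control, Rgs2 went in different directions in the dyes. DiBASC2 libraries had 56.3, 56.4 and 56.4 CPM, 1.19-fold above Control with no overlap (0.25 ± 0.06; adjusted p = 0.00601; 0.0632 without Control replicate 3, in a range of 0.00104 to 0.0632). Di-2-ANEPEQ libraries had 37.7, 38.6 and 39.9 CPM, 1.22-fold below Control with no overlap (-0.29 ± 0.06). The DiBASC2 and Di-2-ANEPEQ libraries thus lay on opposite sides of Control, whereas both were below it for Rgs1; the dyes were not tested against each other. Fura-2 libraries had 38.7, 39.8 and 41.8 CPM, below Control with no overlap, and were not called (-0.24 ± 0.06; adjusted p = 0.0738); they were with no low-count filter (0.0123) and in DESeq2 (0.0351), in a range of 0.0123 to 0.412 over the alternatives. AAV libraries had 42.4, 44.8 and 45.1 CPM and overlapped Control (adjusted p = 0.353).

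**Figure D2:**
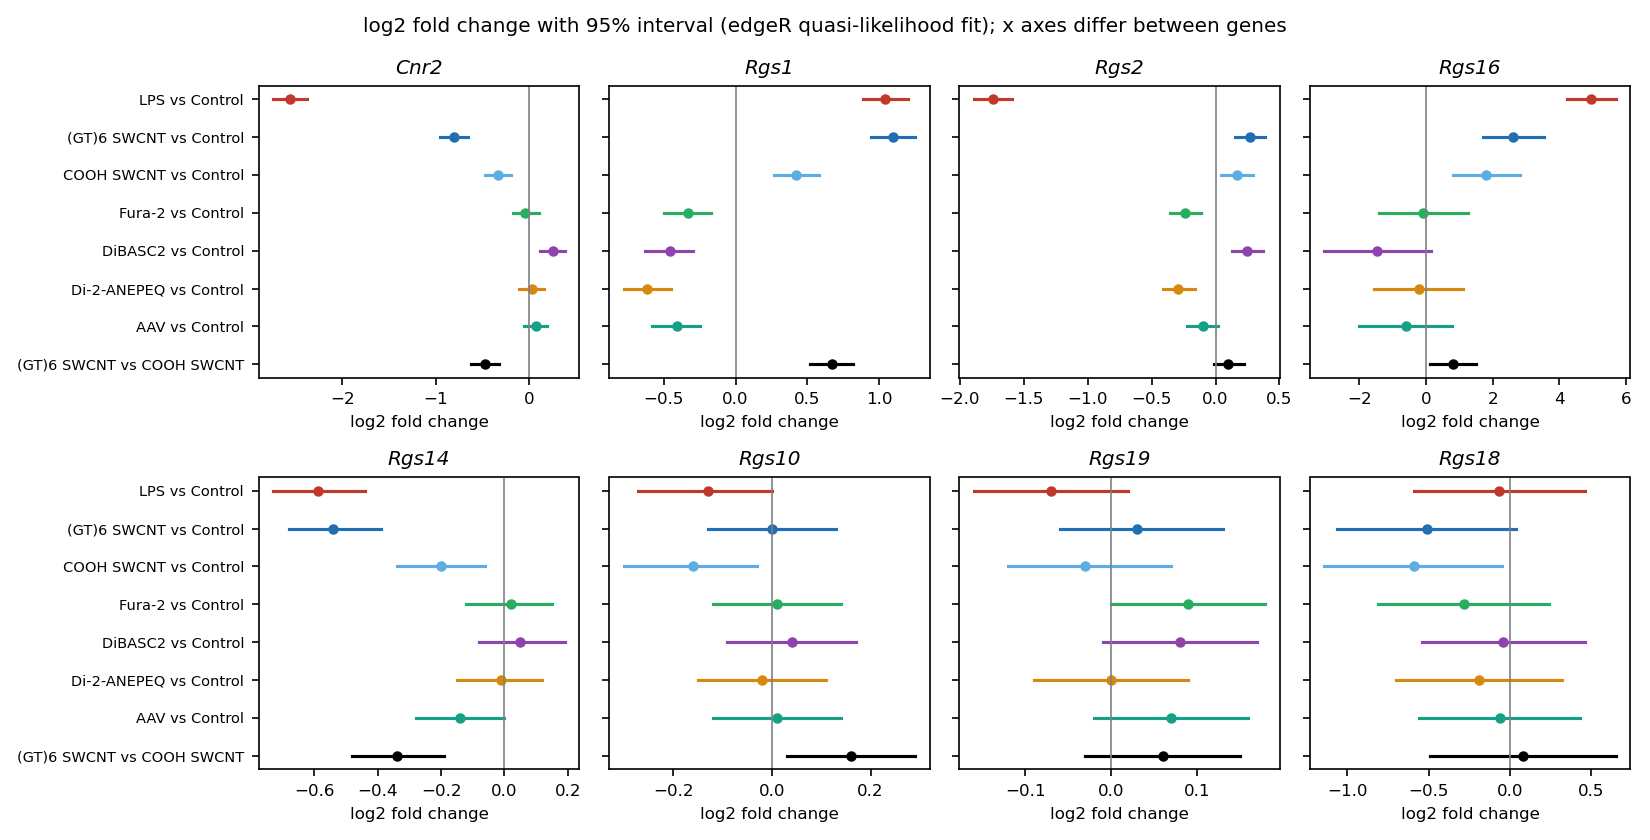
Log2 fold change (x axis, own scale per gene) of each member in the 8 comparisons (y axis). Points are estimates and bars 95% intervals from the edgeR fit. Rgs16 passed the low-count filter only through LPS and the nanotubes, so its bars are not tests. Bars in LPS and Di-2-ANEPEQ are a description, since those comparisons helped choose the list. Rgs2 lies at -1.74 in LPS but at 0.27 in (GT)6 SWCNT, whereas Cnr2 is below 0 in LPS and both nanotubes and Rgs1 and Rgs16 are above 0 in all 3.

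Rgs14 (ENSMUSG00000052087.14), a larger protein that besides its RGS domain carries a GoLoco motif holding inactive inhibitory alpha subunits, fell in (GT)6 SWCNT. Control libraries had 28.6, 28.8 and 30.9 CPM (29.5 ± 1.29, SD, n = 3). LPS libraries had 17.7, 19.5 and 21.4 CPM, 1.5-fold lower (log2 fold change -0.59 ± 0.07, SE). (GT)6 SWCNT libraries had 19.8, 20.0 and 21.2 CPM, 1.45-fold lower (-0.54 ± 0.07; adjusted p = 2.3e-07), and overlapped LPS. COOH SWCNT libraries had 24.6, 25 and 27.2 CPM, below Control with no overlap, a fold of 1.15 that was just called (-0.20 ± 0.07; adjusted p = 0.0367). The COOH call was lost with no low-count filter (adjusted p = 0.0556) and without Control replicate 1 (0.212), Control replicate 3 (0.0731), COOH SWCNT replicate 2 (0.115) or COOH SWCNT replicate 3 (0.142), in a range of 0.0303 to 0.212. The (GT)6 level was 1.27-fold below the COOH level (-0.34 ± 0.07; adjusted p = 0.000607). AAV libraries, at 25.7, 26.1 and 28.2 CPM, were all below Control but were not called (-0.14 ± 0.07; adjusted p = 0.225), and those of the 3 dyes, from 27.3 to 32.6 CPM, overlapped Control.

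Rgs10 (ENSMUSG00000030844.11) and Rgs19 (ENSMUSG00000002458.13), both of which act on inhibitory alpha subunits, varied least. Rgs10 lay between 25.5 and 33.3 CPM and Rgs19 between 71.3 and 88.5 CPM in all 24 libraries, a highest to lowest ratio of 1.31 and 1.24, against 7.88 for Cnr2, 4.62 for Rgs2, 3.97 for Rgs1 and 1.84 for Rgs14. Neither was called in any of the 6 comparisons tested. The lowest Rgs10 group was COOH SWCNT (25.5, 27 and 29.1 CPM against 27.7, 30.7 and 33.3 CPM in Control; -0.16 ± 0.07, adjusted p = 0.0719), with overlapping libraries. It was called without Control replicate 2 (adjusted p = 0.0158) and without COOH SWCNT replicate 3 (0.0452), in a range of 0.0158 to 0.459. Between the nanotubes the Rgs10 difference was 0.16 ± 0.06 (adjusted p = 0.0683), and it was called without COOH SWCNT replicate 3 (0.0268) or (GT)6 SWCNT replicate 3 (0.0354), in a range of 0.0268 to 0.278. For Rgs19 the 95% intervals of the log2 difference from Control stayed between -0.12 and 0.18 across the nanotubes, Fura-2, DiBASC2 and AAV. Its Fura-2 and AAV libraries (84.1 to 87.2 and 83.6 to 85.9 CPM) lay above those of Control (79.4 to 82.0 CPM) but were not called (adjusted p = 0.482 and 0.371).

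Rgs18 (ENSMUSG00000026357.3), known from platelets and their precursors, was low, with 0.903 to 2.53 CPM and 19 to 60 counts per library. Its 3 control libraries already spread from 1.23 to 2.53 CPM. No tested comparison was called, and the intervals were wide: the 95% interval of the log2 difference from Control was -1.06 to 0.04 in (GT)6 SWCNT and -1.14 to -0.05 in COOH SWCNT (adjusted p = 0.12). The COOH difference was called without COOH SWCNT replicate 3 (0.0496, in a range of 0.0496 to 0.582). At this depth a change of Rgs18 by the size seen for Rgs14 was not resolved.

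Levels of different genes were set side by side only per kilobase of the principal annotated transcript. On that scale of CPM per kb the control order was Rgs19 at 53.4, Rgs10 at 34.7, Rgs2 at 15.6, Rgs1 at 14.8, Rgs14 at 12.5, Cnr2 at 4.79, Rgs18 at 0.896 and Rgs16 at 0.0612. The steadiest members were thus the most abundant in Control. Rgs2 and Rgs1 had nearly equal control levels within their SD of 0.975 and 0.961, whereas in LPS their levels were 4.7 and 30.5 CPM per kb and in (GT)6 SWCNT 18.9 and 31.7. Rgs16 in LPS reached 2.05 CPM per kb, above the 0.812 of Cnr2 in the same libraries.

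Profiles over the 24 libraries were compared by Pearson's r of log2 CPM among 9487 genes with a mean of at least 5 CPM, as a description. The r values share the libraries, their depth and the group means, and LPS weighs heavily in them, so r over the 21 libraries without LPS is given beside each. The genes most like Cnr2 were Bhlhe41 (r = 0.993, 0.972 without LPS), a transcriptional repressor of the clock system, Rin2 (0.986, 0.952), a Rab5 exchange factor, 9930111J21Rik2 (0.983, 0.889), Fnip2 (0.982, 0.909), a folliculin partner, and S1pr2 (0.982, 0.932), a sphingosine 1-phosphate receptor. Bhlhe41 had a mean of 51.8 CPM in Control, 64.0 in DiBASC2, 43.6 in COOH SWCNT, 31.6 in (GT)6 SWCNT and 11.3 in LPS, the order that Cnr2 had in these 5 groups. It had 53.7 CPM in Fura-2, 56.7 in Di-2-ANEPEQ and 58.8 in AAV, and in AAV, unlike Cnr2, its libraries (57.6 to 60.1 CPM) lay above those of Control (48.8 to 55.9 CPM). The r values of Rgs16 rest mainly on LPS and the nanotubes, since its other libraries held 0 to 6 counts each. Without LPS they rest mainly on the nanotubes, so they are no separate evidence of likeness. With that limit, Rgs16 was most like Ell2 (0.988, 0.971), an elongation factor of RNA polymerase II, Irak2 (0.982, 0.95), a kinase-like adaptor of Toll-like receptor signalling, and Nlrp3 (0.981, 0.952), an inflammasome sensor. For Rgs1 these were the chemokine gene Ccl7 (0.965, 0.952), Gm6377 (0.959, 0.947) and Odc1 (0.958, 0.94), the rate-limiting enzyme of polyamine synthesis.

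Rgs14 was most like Zbtb7b (0.942, 0.904), Abhd15 (0.942, 0.911) and Klhl21 (0.94, 0.917). Rgs2 was most like Gpr183 (0.965), an oxysterol receptor, Eps8 (0.965) and Rab7b (0.963), but without LPS these fell to 0.663, 0.755 and 0.609. Gpr183 shows where the profiles part: it had 9.94 CPM in LPS and 66.2 in (GT)6 SWCNT, as Rgs2 was low and high there, but 49.4 in DiBASC2 against 49.8 in Control, where Rgs2 was raised. Rgs10, Rgs18 and Rgs19 had no close match, with highest r values of 0.725 (Acp1), 0.673 (Ddx50) and 0.85 (Mt2). Among the members themselves, r was -0.954 between Cnr2 and Rgs16 (-0.936 without LPS), -0.789 between Cnr2 and Rgs1 (-0.924) and 0.828 between Cnr2 and Rgs14 (0.887). The r with Rgs16 again rests mainly on LPS and the nanotubes. Cnr2 and Rgs2 had r of 0.829 over all libraries and -0.412 without LPS, so that sign was set by the LPS libraries.

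**Figure D3:**
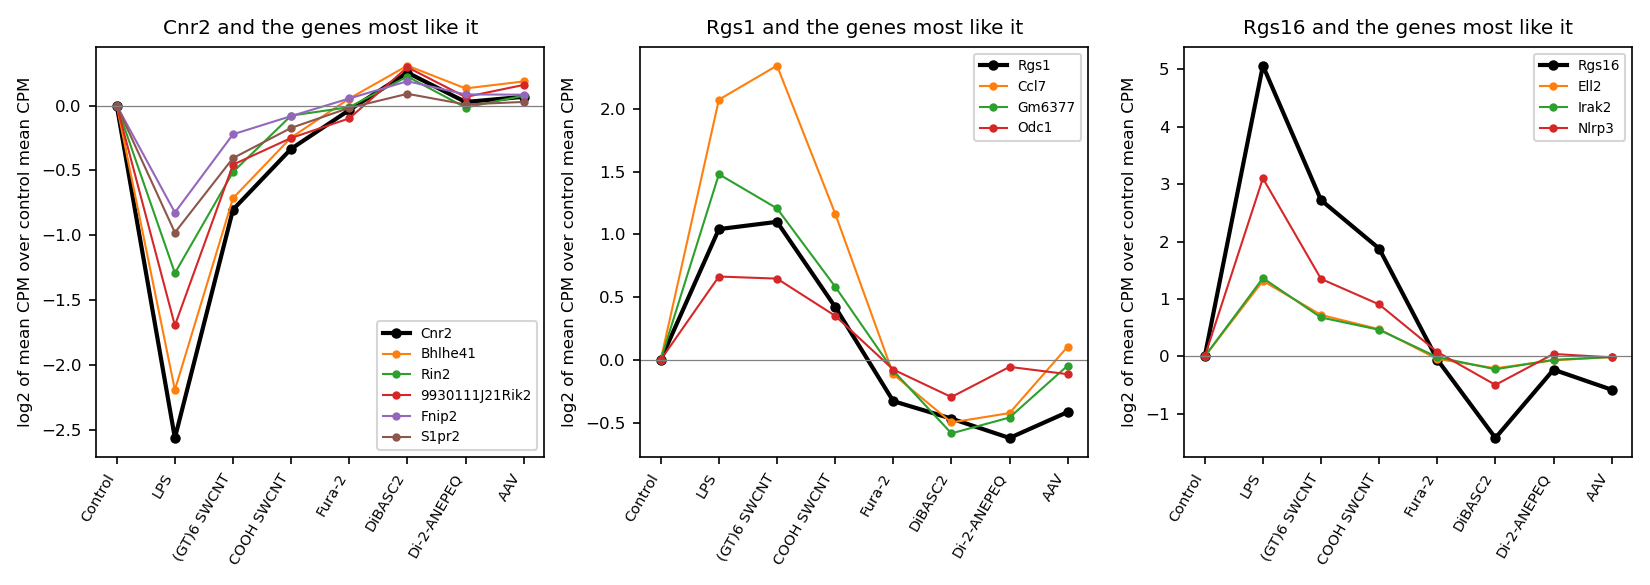
Log2 of each group's mean CPM over the Control mean (y axis) by group (x axis). Panels show Cnr2, Rgs1 and Rgs16, each with the genes of most similar profile, and each line is a gene. Bhlhe41 and Rin2 track Cnr2 down through COOH SWCNT and (GT)6 SWCNT to LPS. Rgs16 moves over a wider span than Ell2, but its 4 lowest groups rest on 4 to 10 summed counts. The Control mean that every Rgs16 point is set against rests on 9 summed counts.

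The surrounding pathway was read from 88 further genes in 8 lists: other Rgs genes, proteins with a related domain, G alpha, beta and gamma subunits, receptor kinases and arrestins, adenylyl cyclases, endocannabinoid genes, and exchange factors with GoLoco proteins. Of these 56 passed the low-count filter. Called genes numbered 15 in LPS (6 higher, 9 lower; 26.8%), 11 in (GT)6 SWCNT (6 higher, 5 lower; 19.6%), 10 in COOH SWCNT (7 higher, 3 lower; 17.9%) and 11 between the nanotubes (3 higher, 8 lower; 19.6%), against 28.3%, 20.4%, 20.0% and 21.4% of all genes, so these 4 shares were near the background. With upper-quartile scaling the splits were 5 higher and 15 lower in LPS, and 5 higher and 8 lower in (GT)6 SWCNT. AAV had 4 (all higher; 7.14% against 5.00%) and DiBASC2 1 lower (1.79% against 5.47%). Fura-2 and Di-2-ANEPEQ had 0 by edgeR, and DESeq2 called 0 and 2. At an unadjusted edgeR p under 0.05 there were 9 and 13 of the 56, beside 1411 and 2161 of all 13116 genes. The median log2 fold change of the 56 genes lay between -0.05 and 0.04 in all 8 comparisons. The (GT)6 count fell to 6 without Control replicate 2 or (GT)6 SWCNT replicate 1. The count between nanotubes fell to 5 without COOH SWCNT replicate 1, 7 without COOH SWCNT replicate 3, 6 without (GT)6 SWCNT replicate 1 and 4 without (GT)6 SWCNT replicate 2. The AAV count fell to between 0 and 2 when any of its 6 libraries was left out, and the Di-2-ANEPEQ count rose to 2 without Control replicate 3. The DiBASC2 count fell to 0 without any 1 of the 3 control libraries or DiBASC2 replicate 2.

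Among the other Rgs genes 5 of 14 passed the filter. Rgs3, which acts on inhibitory and Gq alpha subunits, rose in LPS from 13.0, 13.0 and 13.2 CPM to 24.1, 24.3 and 25.2 CPM (log2 fold change 0.91 ± 0.08, SE; adjusted p = 3.41e-11). It also rose in (GT)6 SWCNT, to 16.9, 17.9 and 20.2 CPM (0.50 ± 0.09; adjusted p = 3.53e-05), and in COOH SWCNT, to 14.5, 15.4 and 17.8 CPM (0.29 ± 0.09; adjusted p = 0.0165). The COOH call was lost without Control replicate 2 (0.0503) or COOH SWCNT replicate 1 (0.178), in a range of 0.00928 to 0.178. Rgs3 thus had the order of means LPS, (GT)6 SWCNT, COOH SWCNT, Control that Rgs16 had, but its nanotube libraries overlapped (adjusted p = 0.0717). Rgs9, best known from photoreceptors and striatum, was called in COOH SWCNT (1.04 ± 0.32; adjusted p = 0.0181). However, its libraries spread widely within groups, from 5.07 to 19.0 CPM in (GT)6 SWCNT alone. The call was lost in DESeq2 (adjusted p = 0.125) and without Control replicate 1 (0.0805), Control replicate 2 (0.0868) or COOH SWCNT replicate 1 (0.0908), in a range of 4.27e-28 to 0.125. Rgs9 was also called lower with (GT)6 than with COOH nanotubes (-1.15 ± 0.32; adjusted p = 0.00914), with overlapping libraries. That call was lost in DESeq2 (0.102) and without COOH SWCNT replicate 1 (0.0558) or (GT)6 SWCNT replicate 1 (0.0803) or 2 (0.107). In Fura-2 its mean was 18.2 CPM against 10.7 in Control, not called in the main fit. That difference was called with no low-count filter (3.31e-13) and in a fit of only the 2 groups (0.00698).

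Of the genes that make or degrade endocannabinoids, and of their other receptors, 12 of 17 passed the filter, and Cnr1, the neuronal cannabinoid receptor, had 0 counts in all 24 libraries. In LPS 0 rose and 3 fell (25%, against 28.3% of all genes), in (GT)6 SWCNT 1 rose and 1 fell (16.7% against 20.4%), and in COOH SWCNT 1 rose and 2 fell (25% against 20.0%), shares near the background. Napepld, which releases anandamide and related lipids from their membrane precursors, fell from 9.92, 9.95 and 10.8 CPM in Control to 5.47, 5.87 and 6.2 CPM in LPS (-0.81 ± 0.10; adjusted p = 1.78e-08). It fell to 6.91, 7.06 and 7.14 CPM in (GT)6 SWCNT (-0.54 ± 0.09; adjusted p = 3.12e-05) and to 7.92, 8.03 and 8.31 CPM in COOH SWCNT (-0.34 ± 0.09; adjusted p = 0.00637, lost without Control replicate 3 at 0.0513, in a range of 0.00614 to 0.0513). Napepld and Cnr2 therefore had the same order of these 4 groups, although the nanotubes were not called against each other for Napepld (adjusted p = 0.134). Daglb, a lipase that makes 2-arachidonoylglycerol, fell in LPS from 61.3, 68.3 and 68.7 CPM to 47.7, 48.9 and 49.3 CPM (-0.44 ± 0.05; adjusted p = 7.92e-10). Mgll, the main enzyme that degrades that lipid, never exceeded 2 counts.

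Of the G alpha subunits, Gnai2 was the inhibitory one with the most counts, at 416.8 to 476.5 CPM in all libraries. Gna13, an alpha subunit of another class, rose in (GT)6 SWCNT from 151.7, 153.8 and 157.0 CPM to 213.8, 219.2 and 225.0 CPM (0.51 ± 0.04; adjusted p = 1.14e-13). It also rose in COOH SWCNT (192.1, 194.3 and 200.7 CPM; 0.34 ± 0.04, adjusted p = 6.24e-09) and in LPS (185.0, 188.9 and 204.6 CPM; 0.32 ± 0.04, adjusted p = 6.68e-09), and the difference between the nanotubes was called (0.16 ± 0.04; adjusted p = 0.00108). Arrb1, beta-arrestin 1, which uncouples and internalizes phosphorylated receptors, fell in LPS to 127.4, 134.0 and 134.7 CPM and in (GT)6 SWCNT to 126.7, 131.0 and 131.6 CPM, from 152.1, 153.5 and 160.1 CPM (-0.23 ± 0.04, adjusted p = 1.25e-05, and -0.26 ± 0.04, adjusted p = 3.57e-06). In COOH SWCNT it had 148.2, 153.3 and 154.5 CPM (adjusted p = 0.644), and the nanotubes differed (-0.23 ± 0.04; adjusted p = 5.14e-05).

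**Figure D4:**
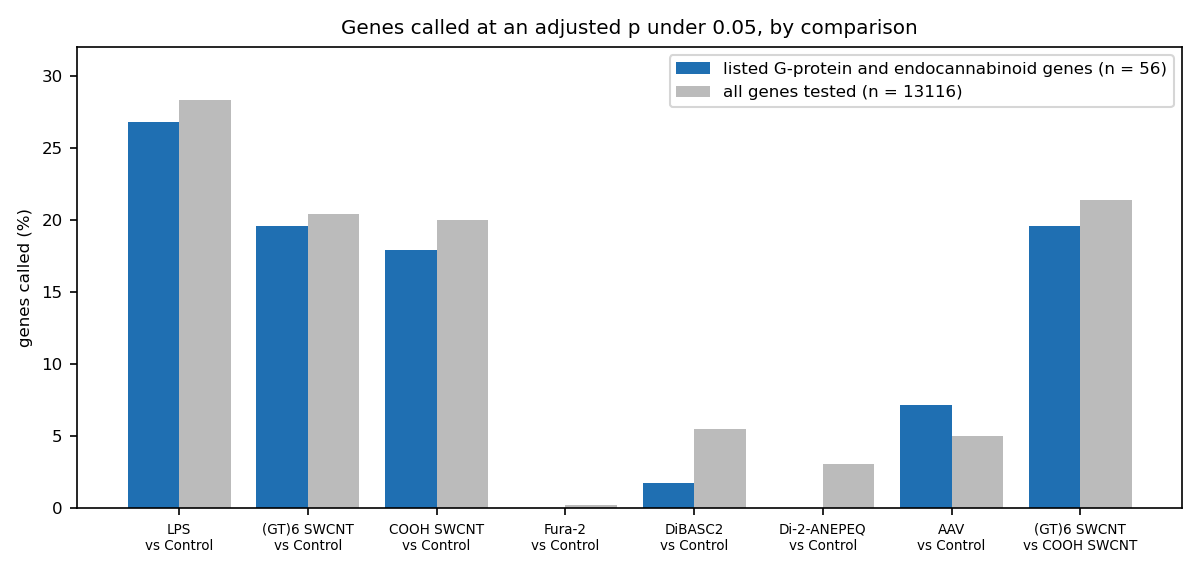
Share of genes called at an adjusted p under 0.05 (y axis, percent) in each of the 8 comparisons (x axis) for the 56 tested pathway genes and for all 13116 genes tested. The bars are close in (GT)6 SWCNT (19.6% against 20.4%) and LPS (26.8% against 28.3%). They are further apart in proportion in DiBASC2 (1.79% against 5.47%) and Di-2-ANEPEQ (0 against 3.08%). Those pathway bars stand for 1 and 0 of the 56 genes, too few to read a difference, and DESeq2 called 0 and 2.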

How the data were processed

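The deposited values are raw counts for 54838 Ensembl mouse gene identifiers, with a column for each of the 24 libraries. The submitters' processing notes name STAR 2.5.4b and GRCm38.p6 without a role; the counting tool, strand setting and annotation release are not given in the sources used here. Groups came from the sample titles. The label spellings of DiBASC2 and Di-2-ANEPEQ vary, and the treatment label of each DiBASC2 library ends in another number. Symbols came from GENCODE M21, which matched 53861 identifiers with the version suffix and 54723 without, leaving 115. Totals were 17364272 to 29259221 counts per library, and TMM factors 0.9547 to 1.031. All 24 replicate pairs differed by more than sampling noise (chi-square per degree of freedom 2.46 to 19.4).

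The main analysis used edgeR 4.0.16 in R 4.3.3: filterByExpr, TMM, and one quasi-likelihood fit with a mean per group over all 24 libraries, with 16 residual degrees of freedom. The biological coefficient of variation was 4.12%. The 8 two-sided contrasts were the 7 treatments against Control and (GT)6 SWCNT against COOH SWCNT, each adjusted by Benjamini-Hochberg over 13116 genes. CPM are TMM-scaled. The scripts were tested on simulated data. Each result was recomputed with other scaling (DESeq2 size factors or the upper quartile), another filter (none, or 50 counts on average), a replicate block, only the 2 groups compared, the test of DESeq2 1.42.0, and each library left out in turn. The S-numbers that end the sample descriptions run consecutively within each group; the labels do not say what they are, so that order and the treatment cannot be told apart.

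The members, lists and tests were chosen with earlier results of these data known. The 8 members were described whatever their values. Of each pathway list, at most the 2 called genes per contrast with the largest absolute log2 fold change and a mean of at least 5 CPM could be named. Cnr1, Mgll, Gnai2, Rgs13, Rgs21 and the cell markers Sall1, Tmem119, P2ry12, Aif1, Mog and Olig2 were named outside this rule, for their level alone. Gm28513 was named for its overlap with Rgs16. Like genes were ranked by Pearson's r of log2 CPM with a prior count of 2. The running of the alternatives on pathway genes was added after seeing the data.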

Additional observations from a re-analysis of the deposited data

How the results depend on the processing

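Of the single-member log2 fold changes recomputed under the alternatives, 775 kept direction and side of the threshold, 15 lost a call, 13 gained one and 0 reversed; 8 had no adjusted p and were left out. Genes called in Fura-2 numbered 33, against 188 with no low-count filter, 80 in a fit of only the 2 groups and 86 in DESeq2, and members called there 0 against 2, 1 and 1. In Di-2-ANEPEQ 404 genes were called, and 814 in a fit of only the 2 groups. Pathway genes called moved with no low-count filter to 6 in (GT)6 SWCNT, 1 in Fura-2, 0 in DiBASC2, 1 in Di-2-ANEPEQ and 1 in AAV. In a fit of only the 2 groups they were 1 in Fura-2, 0 in DiBASC2, 2 in Di-2-ANEPEQ and 0 in AAV, with upper-quartile factors 2 in DiBASC2 and 1 in AAV, and in DESeq2 0 in DiBASC2 and 2 in Di-2-ANEPEQ. The cause was not tested. With 1 library left out, genes called ranged from 3104 to 3580 in LPS, 1980 to 2576 in (GT)6 SWCNT, 1786 to 2463 in COOH SWCNT, 0 to 106 in Fura-2, 333 to 574 in DiBASC2, 120 to 418 in Di-2-ANEPEQ, 157 to 769 in AAV and 1923 to 2551 between the nanotubes. Members called ranged from 5 to 6, 5 to 5, 3 to 6, 0 to 1, 2 to 3, 2 to 2, 1 to 1 and 3 to 5, and pathway genes called from 12 to 14, 6 to 13, 8 to 9, 0 to 0, 0 to 1, 0 to 2, 0 to 2 and 4 to 9, in the same order. Same-numbered libraries correlated at -0.08 to 0.07, and 12 of 24 correlated best with their own number, among 3 candidates each. These matches share the control libraries, so they do not settle whether replicate numbers pair the samples. The replicate block gave 3683, 2631, 2548, 22, 694, 396, 580 and 2748 genes called in the same order, 4 members called in COOH SWCNT (without Rgs2) and 0 pathway genes in AAV, and changed no other member's call. Depth limits Rgs16 outside LPS and the nanotubes, and Rgs18 throughout.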
